A study of Mus musculus with 22 samples.

Results

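The matrix metalloproteinases (MMPs), the ADAMs and the ADAMTS enzymes are described here in mouse pancreatic cancer, in whole tumors and in lines of cancer cells derived from tumors of this kind. Members are all protein-coding genes in both count tables whose symbol is Mmp, Adam or Adamts followed directly by a digit, with Ensembl identifiers matched to symbols through GENCODE vM21 (mm10). They number 74 of 21852 protein-coding genes and of 53342 genes in all, and comprise 22 Mmp, 33 Adam and 19 Adamts genes. A further symbol match, Mmp1a, is not annotated as protein-coding there and was left out. RNA was sequenced from 8 tumors labelled miR21 KO and 4 labelled WT, and from 5 lines labelled miR21 KO and 5 labelled WT. All animals are of the mouse line Bl6 and carry KPC in their titles, a name used for mice whose pancreas bears an activated K-Ras and a mutated p53 allele. The labels say that recombined K-Ras and p53 alleles were checked in the lines, and they name no Cre driver and no age beyond animals being symptomatic. Neither animals nor lines were treated. Each line was passaged at least 8 times, was used at passage 10 to 14 and was grown in 5% serum. A line and a tumor from the same animal exist, by title, for 5 animals.

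MMPs are zinc proteases, secreted or anchored at the cell surface, that are made as inactive precursors. Together they cut collagens, gelatin, elastin, proteoglycans and other proteases. ADAMs are mostly membrane proteins, of which some release growth factors, cytokines and adhesion molecules by cutting them near the membrane. ADAMTS enzymes are secreted proteases with thrombospondin repeats, some of which trim procollagens or cleave proteoglycans. Pancreatic cancer is rich in stroma, where fibroblasts, macrophages, neutrophils and cancer cells each make some of these enzymes. MicroRNA-21 lowers mRNAs that match its seed, and the protease inhibitors Reck and Timp3 are among its published targets.

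The seed of miR-21 and its matches are shown because the KO removes this microRNA. Mature miR-21a-5p (RefSeq, GRCm38.p6, chr11:86584120-86584141, minus strand) is printed with its seed, bases 2 to 8, in capitals. After it stand 3′ UTR sites of 3 members and 3 inhibitors from GENCODE vM21 on mm10, 5′ to 3′ on the transcribed strand, with the match in capitals.
miR-21a-5p: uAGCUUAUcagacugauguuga
Adamts5, 7mer-A1 site, chr16:85858167-85858196, minus strand: ccattcattatTAAGCTAatgcacaggaat
Adamts6, 7mer-m8 site, chr13:104494678-104494707, plus strand: catgcggaaagATAAGCTggcttagtaata
Adamts20, 7mer-m8 site, chr15:94321825-94321854, minus strand: tgagggagtggATAAGCTtgaagcatccac
Reck, 8mer site, chr4:43944396-43944425, plus strand: tacagtttgaaATAAGCTAttaatgtaata
Timp3, 8mer site, chr10:86348216-86348245, plus strand: ttgagctttcaATAAGCTAtagctttgttt
Timp2, 7mer-m8 site, chr11:118302328-118302357, minus strand: cgtcttaaaaaATAAGCTgtcccaaggaca
A 7mer-m8 site is ATAAGCT, an 8mer adds an A after it, and a 7mer-A1 is TAAGCTA. The longest annotated 3′ UTR of 73 members was searched. An 8mer or 7mer-m8 site was found in 3 of them (4.11%), against 7.23% of 20880 protein-coding genes, and an 8mer in 0 members, against 2.12%. A 7mer-A1 site was found in 1 member, Adamts5 (1.37%), against 4.86% of these genes. The remaining member with a 7mer-m8 site, Adam7, had 7 counts in all tumors together. These matches are letters only and say nothing of binding.

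Library totals ran from 24547650 to 31118113 counts over the 22 libraries, and levels are given as CPM, the count per 1000000 counts of the library after scaling by its TMM factor. Mir21a had 0 counts in every library, WT included, so the genotype labels could not be checked on the targeted gene. In the lines the 6 epithelial markers summed to 8720 to 11280 CPM (KO) and 7237 to 14430 CPM (WT), while the fibroblast markers Dcn and Lum and the macrophage markers Adgre1, C1qa, C1qb and C1qc were at 0. Of the other macrophage markers, Mrc1 had 173 to 3916 counts in lines and Cd68 had counts in every line. So did the fibroblast markers Col1a1 and Pdgfra. The 8 fibroblast markers summed to 1883 to 12390 CPM in KO tumors, 2822 to 7609 CPM in WT tumors, 3.25 to 7.51 CPM in KO lines and 2.23 to 15.7 CPM in WT lines. In these bulk samples, fewer cells of a type and less RNA per cell cannot be told apart. KO tumor 2 had the lowest fibroblast sum of all tumors and was the lowest of 12 tumors for 22 of the 52 members tested there. WT line 3 had the highest fibroblast sum and the lowest epithelial sum of all lines, and was the highest of 10 lines for 11 of the 33 members tested there.

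Members ranged from abundant to undetected. Of the 74, 46 averaged at least 1 CPM over the 12 tumors and 28 over the 10 lines, and 18 did so in tumors but not in lines. At the other end 6 members, Adam6a, Adam20, Adam24, Adam26a, Adam26b and Adam34, had 0 counts in all libraries, which allows up to 0.1335 CPM in KO line 4, where this floor is highest (3 counts, scaled as above, counting error only). Another 15 had 1 to 100 counts over all libraries together. Many of these low members are ADAM genes known from testis and sperm, and Adam1a with Adam1b, Adam6a with Adam6b and Adam26a with Adam26b are near copies among which reads may be split. Several members share exonic bases with a neighbour on the other strand, and the strand setting of the authors' counting is not given in the sources used here. The shared part was 22.3% of the exonic bases of Mmp19 (with Tmem198b), 20.6% of Adam15 (with 4731419I09Rik) and 13.6% of Mmp24, whose neighbour BC029722 had 21373 counts against 1335 for Mmp24 itself. Values of Mmp19 and Mmp24 are uncertain for this reason. Adam1a is uncertain whatever the strand setting, as it shares 63.7% of its exonic bases with Gm42878 and 24.0% with Mapkapk5 on its own strand.

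**Figure D1:**
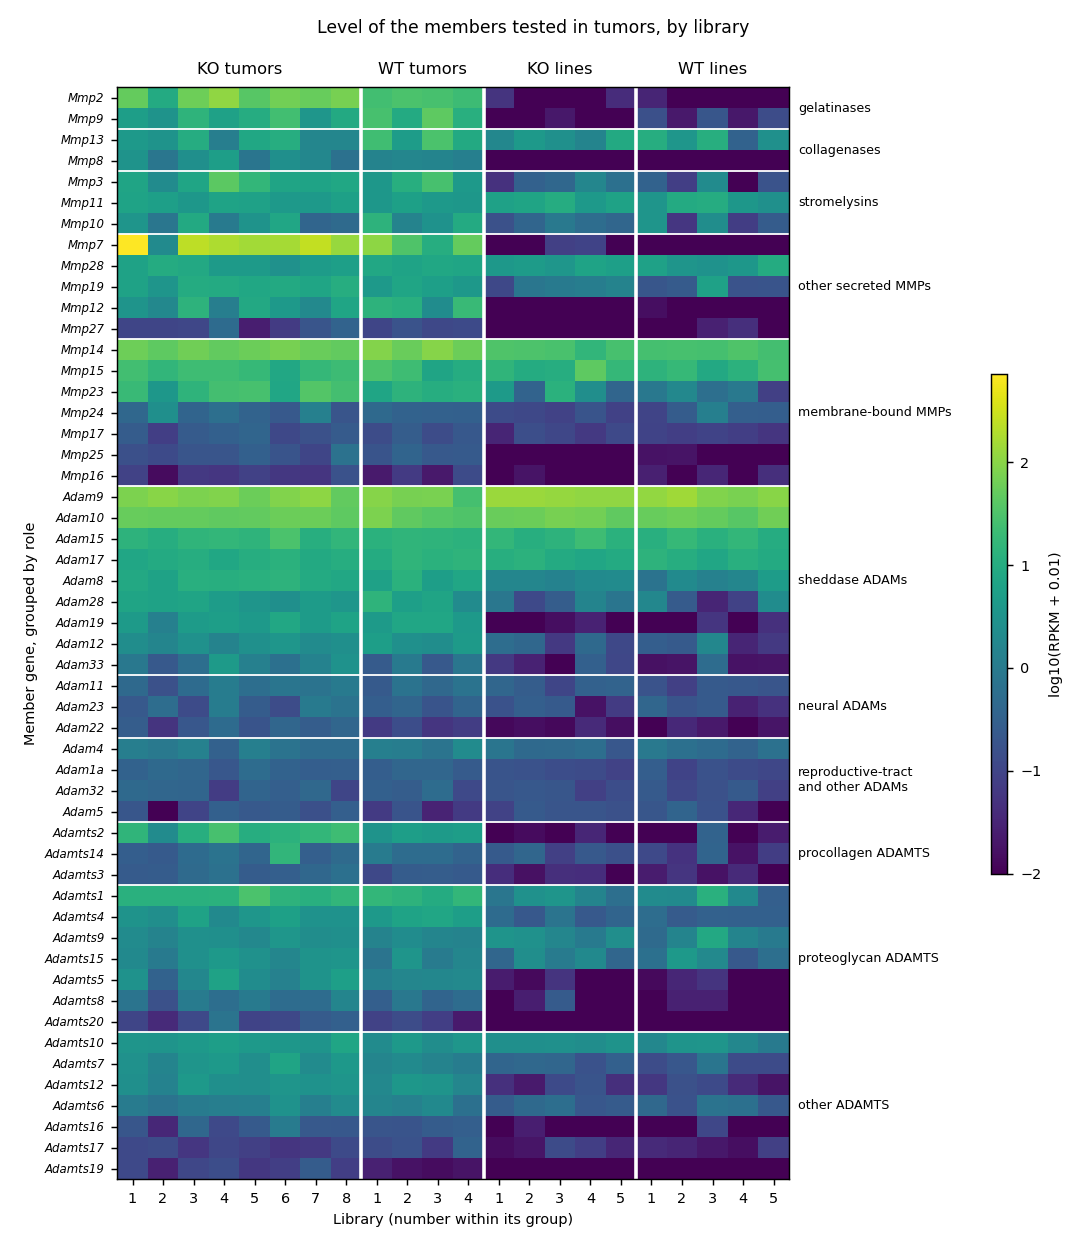
Colour shows the level of each of the 52 members tested in tumors as log10(RPKM + 0.01), with 1 column per library and rows grouped by role. Adam9, Adam10, Mmp14 and Mmp15 are bright in all 4 groups, whereas Mmp2, Mmp7, Mmp9, Mmp12, Adam19 and Adamts2 are bright in tumors and dark in lines.

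Genes were compared with each other per kilobase of exon (RPKM, on GENCODE vM21 exon lengths). The highest members in the 10 lines were sheddases and membrane-bound MMPs: Adam9 averaged 115 ± 21.9 RPKM, Adam10 56.7 ± 9.36 RPKM and Mmp14 27.7 ± 4.92 RPKM (SD). Adam10 releases the extracellular domains of Notch and E-cadherin, and Mmp14 (MT1-MMP) is a collagenase of the cell surface that also activates pro-MMP2. Next came Mmp15, a relative of Mmp14, with 17.7 ± 10.7 RPKM, Adam15 with 14.4 ± 3.79 RPKM and Adam17, the TNF-converting enzyme, with 10.3 ± 2.10 RPKM, neighbours within their spread. In the 12 tumors Mmp7, the secreted matrilysin, had the highest mean, 169.9 ± 192 RPKM, with libraries from 2.09 to 717 RPKM. Adam9 followed with 76.2 ± 22.9 RPKM, then Mmp14 with 62.5 ± 15.3, Adam10 with 51.0 ± 12.0 and Mmp2 with 47.5 ± 28.4 RPKM. Each of these lay within the spread of the next. By genotype, Mmp7 averaged 229 RPKM in KO tumors and 51.3 RPKM in WT tumors, where Mmp14 (74.2) and Adam9 (67.5) were higher.

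Whole tumors differed widely from cancer cells in culture. Of the 52 members tested over all 22 libraries, 40 were higher in tumors, 1 was lower and 11 did not pass (edgeR quasi-likelihood test, Benjamini-Hochberg adjusted p under 0.05 over 18662 genes). Of all genes tested, 38.5% were higher in tumors and 27% lower. The median log2 fold change was 2.77 over the members tested and 0.15 over all genes. A member could pass the low-count filter through tumors alone, and 19 of the 52 were too low to be tested within lines, so this count is a description. Within WT libraries 32 members were higher in tumors and 0 lower, against 28% and 18.5% of all genes. Within KO libraries 37 were higher and 1 lower, against 34.2% and 22.9%. For 19 members every tumor lay above every line, an order that 12.2% of all genes showed, and for 0 members every tumor lay below every line, against 5.58%.

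The gelatinases, which cut denatured and basement-membrane collagen, were near absent from the lines. Mmp2 (gelatinase A) ran from 31.8 to 377 CPM in KO tumors, with a median of 194, and was 81.3, 104, 94.2 and 70.9 CPM in WT tumors. The 12 tumors held 56355 Mmp2 counts and the 10 lines 9. Mmp9 (gelatinase B) had 17830 counts in the tumors and 44 in the lines. Every tumor lay above every line for both genes, with log2 fold changes of 11.91 ± 0.55 for Mmp2 (adjusted p = 1.66e-12) and 9.66 ± 0.67 for Mmp9 (SE, adjusted p = 3.78e-10, edgeR). Fitted folds of this size rest on the few counts in lines, and they were 13 for Mmp2 without WT line 1 and 10.38 for Mmp9 without KO line 3. Neither gene could be tested within lines, so both passed the low-count filter through tumors alone.

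**Figure D2:**
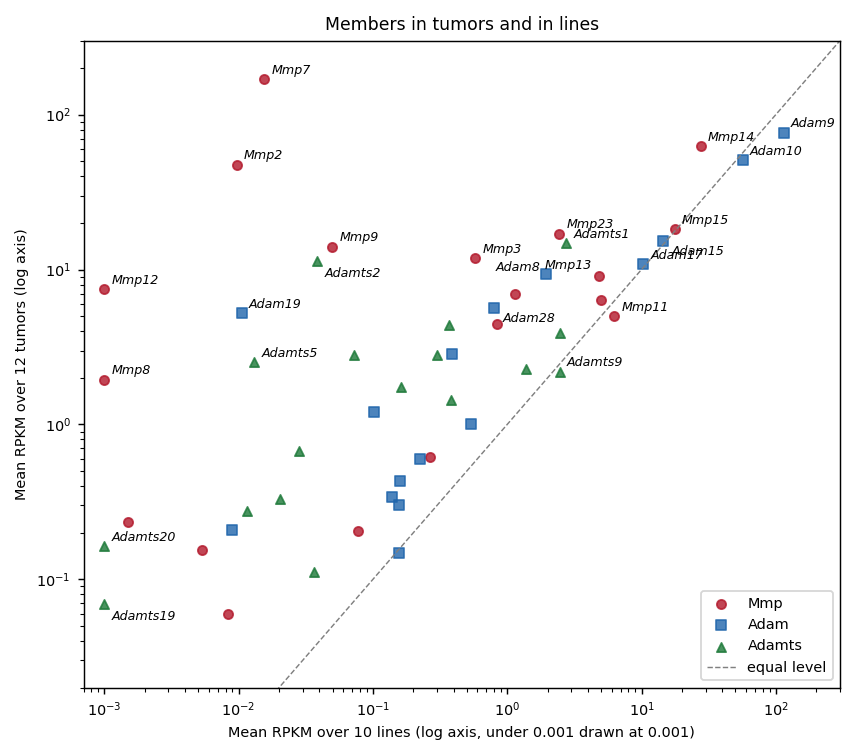
Each point is 1 of the tested members, with its mean RPKM over 12 tumors on the vertical log axis and over 10 lines on the horizontal log axis, and levels under 0.001 drawn at 0.001. Adam9, Adam10, Adam15, Adam17 and Mmp15 lie near the line of equal level, and Mmp7, Mmp2, Mmp12 and Mmp8 lie far above it.

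Other secreted MMPs included the widest contrasts. Mmp7 had 64723 counts in the tumors and 4 in the lines, with a log2 fold change of 13.18 ± 1.15 (adjusted p = 5.71e-08, edgeR). It was too low to be tested within lines and passed the low-count filter through tumors alone. Its values are thus a description, and the fold rests on the 4 counts in lines. Mmp12, the macrophage metalloelastase, had 19038 counts in tumors and 1 in lines, a ratio of 13836 between pooled CPM (95% exact interval 2483 to 546530, counting error only). Mmp19 averaged 27.9 ± 8.11 CPM in KO tumors, 18.2 ± 5.07 in WT tumors, 3.17 ± 1.79 in KO lines and 4.87 ± 9.38 in WT lines, where WT line 3 alone lay above the KO lines. It was higher in tumors by 2.52 ± 0.60 on the log2 scale (adjusted p = 0.000984, edgeR), and by 3.94 without WT line 3. Mmp28 (epilysin), an MMP of epithelia, averaged 22.6 ± 9.14 CPM in KO tumors, 28.7 ± 3.05 in WT tumors, 18.5 ± 4.92 in KO lines and 19.9 ± 10.6 in WT lines. Its log2 fold change of 0.41 ± 0.22 missed the threshold (adjusted p = 0.116, edgeR), but passed without WT line 5, at 0.59 (adjusted p = 0.0162).

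Collagenases and stromelysins, which cut fibrillar collagen and a broad set of matrix proteins, held both kinds. Mmp8, the neutrophil collagenase, had 1651 counts in the tumors and 0 in all lines, so its pooled CPM was at least 399.96-fold higher in tumors (floor of 3 counts over the lines together). Mmp13 (collagenase-3) was present in every line, at 4.72, 11.4, 7.44, 4.14 and 24.0 CPM in KO lines and 28.7, 9.52, 30.2, 0.886 and 7.29 CPM in WT lines. Tumors and lines overlapped for Mmp13, and its log2 fold change of 0.98 ± 0.54 missed the threshold (adjusted p = 0.116, edgeR). Without KO line 5 it was 1.27 and just passed (adjusted p = 0.0497). Mmp11 (stromelysin-3) averaged 14.8 ± 3.16 CPM in KO tumors, 12.1 ± 2.81 in WT tumors, 18.5 ± 5.96 in KO lines and 16.2 ± 9.75 in WT lines, with a log2 fold change of -0.38 ± 0.22 (adjusted p = 0.145, edgeR). Mmp3 (stromelysin-1) was higher in tumors by 4.34 ± 0.78 on the log2 scale (adjusted p = 6.48e-05; 5.30 without WT line 3) and Mmp10 (stromelysin-2) by 2.63 ± 0.75 (adjusted p = 0.00419).

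A cluster on chromosome 9 (mm10, chr9:7272514-7699585, from Mmp13 to Mmp7) holds 9 of the Mmp genes. Of these, 7 have the letters TGANTCA, an AP-1 motif, in the RefSeq promoter window from 250 bases before to 50 after the start (GRCm38.p6). The windows are shown because neighbours with these letters differed widely in level. The motif reads the same on both strands, and no other promoter motif was searched. Each line gives 30 bases on the gene's strand, with the motif in capitals and the position of its first base relative to the start. Mmp1b lies on the minus strand and the others on the plus strand.
Mmp13, -35, chr9:7272468-7272497: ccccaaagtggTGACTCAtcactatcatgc
Mmp12, -44, chr9:7347319-7347348: gacatcaacagTGAGTCAgatagaggattt
Mmp1b, -93, chr9:7388101-7388130: gttacaaagccTGAGTCAtatagcctctgg
Mmp3, -46, chr9:7445765-7445794: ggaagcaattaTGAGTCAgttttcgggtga
Mmp10, -63, chr9:7502268-7502297: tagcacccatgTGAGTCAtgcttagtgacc
Mmp20, -95, chr9:7628125-7628154: catttgagacaTGAATCAtcacttacaggg
Mmp7, -63, chr9:7692016-7692045: aagtgtgcaaaTGAGTCAcctatttccaca
Mmp12 and Mmp7 have another window each, without the motif, so that 63.6% of 11 cluster promoters hold it, against 7.81% of 32851 promoters. By gene, the motif was in 77.8% of the 9 cluster genes, 27.3% of the 44 members matched in the table and 0 of 10 Adamts genes, against 8.97% of 27025 genes. It was not in the windows of Mmp8 and Mmp27. Genes with these letters ranged from Mmp7, the member of highest mean RPKM over the 12 tumors, to Mmp1b, with 10 counts in all tumors and 2 in all lines. Mmp20, an enamel protease, had 52 counts in tumors and 1 in lines.

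**Figure D3:**
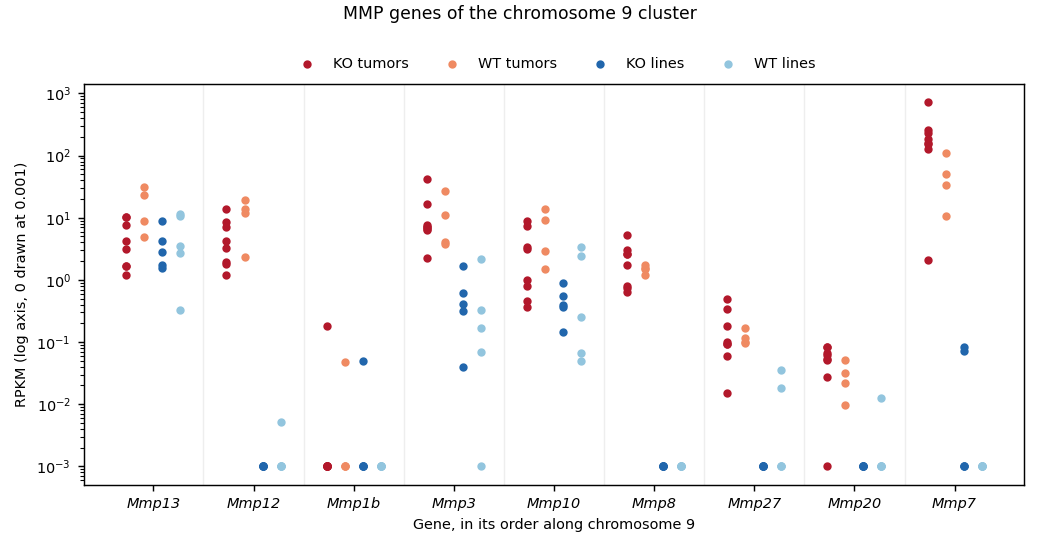
RPKM of the 9 Mmp genes of the chromosome 9 cluster in their order along the chromosome, 1 point per library and 1 colour per group, on a log axis with 0 drawn at 0.001. Mmp13 overlaps between tumors and lines, whereas Mmp12, Mmp8 and Mmp7 are near or at 0 in lines.

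Membrane-bound MMPs were higher in tumors for 6 of 7 members, against 38.5% of all genes, but the abundant ones were also present in lines. Within lines 5 were high enough to be tested. Among the 6, Mmp24 (1.24, adjusted p = 0.0309, edgeR) no longer passed without any of several single libraries, as without WT tumor 1 (adjusted p = 0.0621). Its values are also uncertain through the overlap given above. Mmp14 averaged 338 ± 54.3 CPM in KO tumors, 442 ± 119 in WT tumors, 164 ± 40.1 in KO lines and 167 ± 17.9 in WT lines, and was higher in tumors by 1.23 ± 0.13 on the log2 scale (adjusted p = 1.02e-07, edgeR). Mmp15 did not pass, with a log2 fold change of 0.04 ± 0.30 (adjusted p = 0.912). Mmp23, a short MMP that lacks the usual hemopexin domain, averaged 46.9 ± 25.9 CPM in KO tumors, 25.5 ± 6.40 in WT tumors, 9.4 ± 11.7 in KO lines and 2.0 ± 1.5 in WT lines (adjusted p = 0.000148). Mmp25, known from leukocytes, had 435 counts in tumors and 2 in lines, a ratio of 158 between pooled CPM (95% exact interval 43.5 to 1309, counting error only).

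The sheddases split into a shared and a tumor-rich set. Adam9 was the single member lower in tumors, at 332 ± 81.8 CPM in KO tumors, 278 ± 120 in WT tumors, 509 ± 41.3 in KO lines and 434 ± 114 in WT lines. It fell by 0.63 ± 0.18 on the log2 scale (adjusted p = 0.00443, edgeR). In the 2 KO animals with both materials, Adam9 was at 410 and 321 CPM in the tumors, against 557 and 466 CPM in their lines. In the 3 such WT animals it was at 394, 300.3 and 307 CPM in the tumors, against 488, 601.5 and 316 CPM in their lines. The tumor was thus lower in all 5 animals, by little in the last. Adam10, Adam15 and Adam17 did not pass, with log2 fold changes of -0.16 ± 0.13, 0.06 ± 0.17 and 0.12 ± 0.13. Without WT tumor 1, Adam10 passed as lower in tumors too, at -0.37 (adjusted p = 0.00611, edgeR). Adam19 had 13192 counts in tumors and 18 in lines, and Adam8, known from leukocytes, was higher in tumors by 2.18 ± 0.26 (adjusted p = 4.59e-07). Adam12 was higher by 2.98 ± 0.56 (adjusted p = 0.000107; 3.83 without WT line 3) and Adam28 by 2.92 ± 0.61 (adjusted p = 0.000311, edgeR).

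ADAMTS genes were higher in tumors for 15 of 17 tested, where 38.5% of all genes were. Within lines only 9 ADAMTS genes were high enough to be tested, so the counts of this paragraph are a description. All 3 procollagen-processing members, Adamts2, Adamts3 and Adamts14, which remove the amino-terminal propeptide of fibrillar procollagens, passed. KO tumor 6 held 2445 of the 3238 Adamts14 counts in tumors. Without that tumor the log2 fold change of Adamts14 was 1.66 in place of 2.92 (adjusted p = 0.00324, edgeR). Adamts2 averaged 138 ± 73.2 CPM in KO tumors and 41.5 ± 9.50 in WT tumors, against at most 3.22 CPM in any line (WT line 3), a log2 fold change of 8.69 ± 0.83 (adjusted p = 2.68e-08, edgeR). WT line 3 held 80 of its 89 counts in lines, and the change was 10.83 without that line and 9.596 without KO line 4. Of the 7 proteoglycan-cleaving members 5 passed, among them the aggrecanases Adamts4 (3.64 ± 0.28) and Adamts5 (7.37 ± 0.72), and Adamts1 (2.49 ± 0.45). Without KO line 3 the change of Adamts5 was 8.06, and without WT line 3 that of Adamts1 was 3.08. Adamts15 and Adamts9 did not pass, although Adamts15 did without WT line 2 (1.03, adjusted p = 0.0411, edgeR). Adamts9 averaged 36.5 ± 9.33 CPM in KO tumors, 25.9 ± 5.95 in WT tumors, 34.2 ± 13.7 in KO lines and 39.6 ± 50.3 in WT lines, where WT line 3 had 129 CPM. Adamts19 and Adamts20 had 0 counts in all lines, and their pooled CPM was at least 85.0-fold and at least 122-fold higher in tumors. All 7 of the other tested ADAMTS genes passed, and Adamts10 was nearest the threshold, at 0.57 ± 0.20 (adjusted p = 0.0163). Without WT tumor 2 it was 0.47 (adjusted p = 0.0509).

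All 8 fibroblast, 7 macrophage, 7 neutrophil and 5 endothelial markers were also higher in tumors, where 38.5% of all genes were. These markers could pass the low-count filter through tumors alone. Within lines only 2 fibroblast, 2 macrophage, 0 neutrophil and 0 endothelial markers could be tested, so this count is a description. Macrophage markers summed to 353 to 1850 CPM in KO tumors, 674 to 932 in WT tumors, 21.1 to 121 in KO lines and 9.45 to 162 in WT lines. In every line Mrc1 had the most counts of these markers. Neutrophil markers summed to 47.4 to 352 CPM in KO tumors, 70.9 to 152 in WT tumors and at most 0.734 in any line, with Csf3r, Ngp and Retnlg at 0 in all lines. Endothelial markers summed to 114 to 433 CPM in KO tumors, 148 to 300.4 in WT tumors and at most 2.49 in any line. The part of these cells in each member's level was not tested.

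Between KO and WT tumors 0 of 52 members passed (edgeR, adjusted p under 0.05), where 0.011% of 18125 genes did. At an unadjusted p under 0.05, 9 members were higher in KO tumors and 7 lower, against 8.34% and 8.39% of all genes. DESeq2 called 4 members, all higher in KO tumors (Adam22, Adamts2, Adamts7 and Adamts19), among 883 genes. The fold change was positive for 38 members and negative for 14, with a median of 0.29 over members and 0.01 over all genes. Of the 18125 genes it was positive for 9243 and negative for 8882. For 0 members did the KO and WT tumors separate fully, where 1.12% of genes lay wholly higher and 0.789% wholly lower. The following values are therefore differences that missed the threshold.

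**Figure D4:**
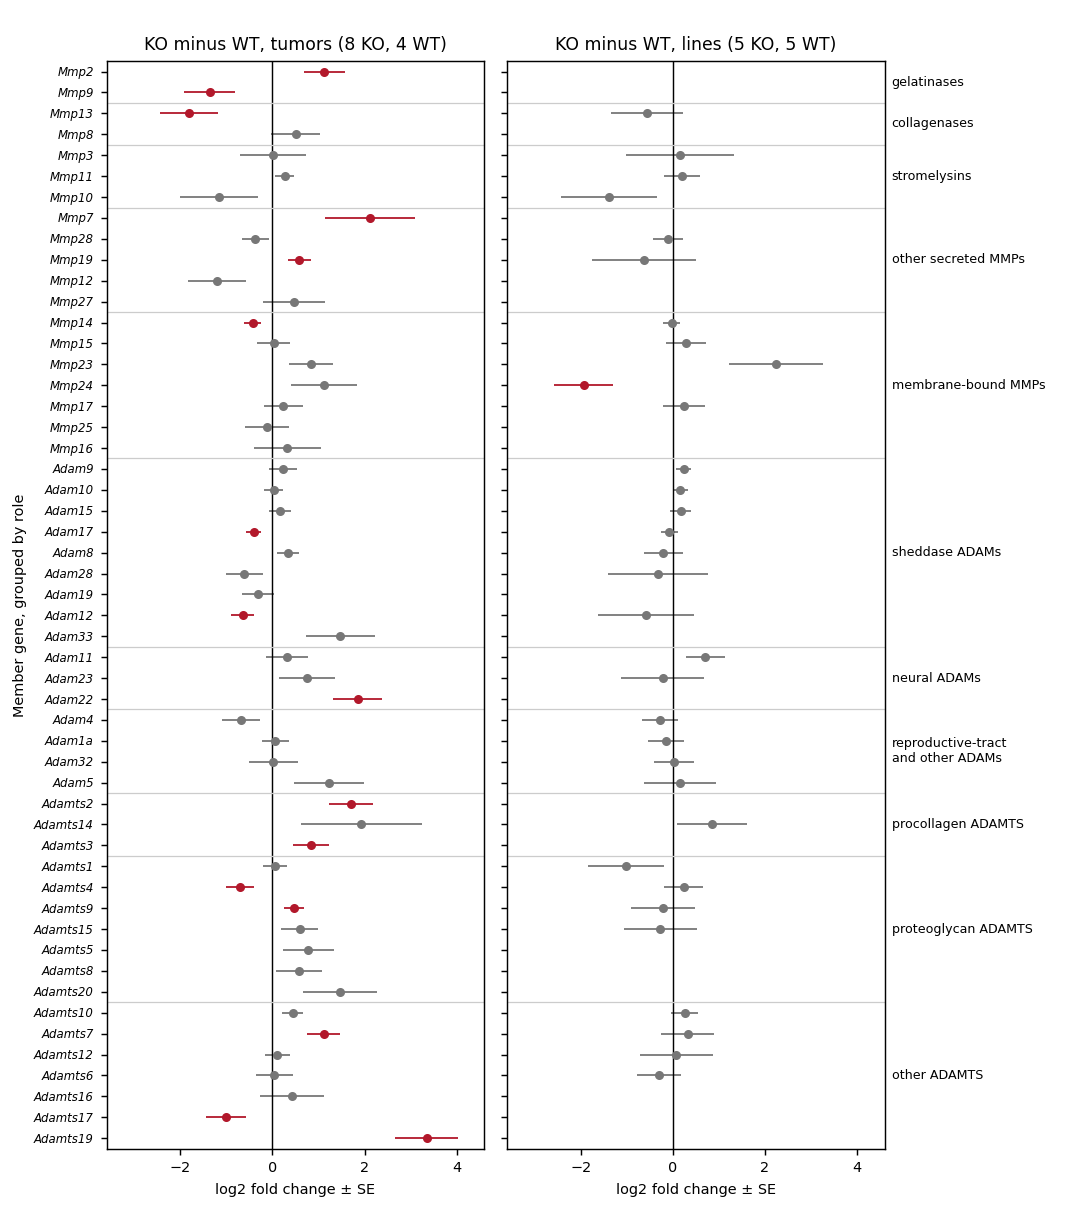
Log2 fold change of KO over WT with its SE for each tested member, tumors and lines in separate panels, with members at an unadjusted p under 0.05 in red. In tumors 9 red points lie to the positive side and 7 to the negative side, and in lines 1 lies to the negative side.

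Of the 9 members higher in KO tumors at that unadjusted p, 5 were ADAMTS genes. Adamts2 ran from 20.4 to 263 CPM in KO tumors, with a median of 129, and was 28.4, 49.4, 40.6 and 47.6 CPM in WT tumors. Its log2 fold change was 1.70 ± 0.48 (adjusted p = 0.147, edgeR). Adamts19, an orphan ADAMTS, ran from 0.244 to 3.44 CPM in KO tumors, with a median of 1.20, and was 0.245, 0.101, 0.0642 and 0.108 CPM in WT tumors (3.35 ± 0.68, adjusted p = 0.115). These WT tumors held 7, 3, 2 and 3 counts, near the floor of 3, so its fold rests on few counts in every setting. Adamts7, which cleaves cartilage oligomeric matrix protein, ran from 9.78 to 43.2 CPM in KO tumors, with a median of 19.4, and was 10.0, 13.1, 9.11 and 6.95 CPM in WT tumors (1.11 ± 0.35, adjusted p = 0.178). For all 3 genes, 7 of 8 KO tumors lay above every WT tumor and KO tumor 2 did not. Of the 17 ADAMTS genes tested, 15 had a positive fold change, where 9243 of all 18125 genes did. The members with a miR-21 site had log2 fold changes of 0.78 ± 0.55 (Adamts5), 0.04 ± 0.40 (Adamts6) and 1.46 ± 0.81 (Adamts20), with adjusted p of 0.503, 0.972 and 0.383.

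The same order of tumors held for 3 members outside the ADAMTS genes. The Mmp2 values given above differ by 1.13 ± 0.44 on the log2 scale (adjusted p = 0.234, edgeR). Mmp7 ran from 2.23 to 766 CPM in KO tumors, with a median of 183, and was 117, 35.9, 11.5 and 54.6 CPM in WT tumors (2.12 ± 0.98, adjusted p = 0.298). Adam22, a neuronal ADAM without protease activity that binds LGI1, ran from 0.626 to 6.96 CPM in KO tumors, with a median of 3.74, and was 0.805, 1.85, 0.674 and 0.972 CPM in WT tumors (1.85 ± 0.54, adjusted p = 0.15). Each had 7 of 8 KO tumors above every WT tumor, again with KO tumor 2 as the exception. The share of all genes with such an order was not determined, and these members were picked by p or level. Without KO tumor 2, which was singled out after its values were seen, Adamts2 (1.86) and Adamts19 (3.51) passed at an adjusted p of 0.0341 each among 82 genes. When WT tumor 3, which had the highest skeletal muscle marker sum (1278 CPM), was left out too, 0 members passed, with log2 fold changes of 1.86 for Adamts2 (adjusted p = 0.1) and 3.30 for Adamts19 (adjusted p = 0.114, edgeR).

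**Figure D5:**
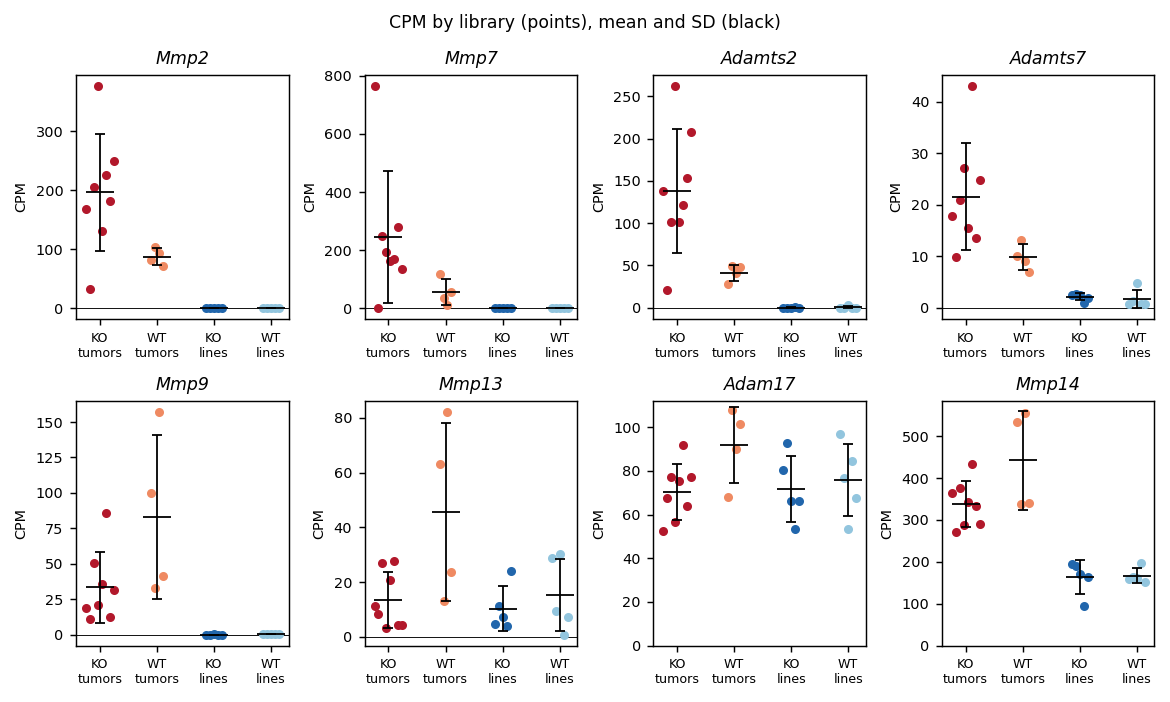
CPM of 8 members in each library, with the group mean and SD, for KO tumors, WT tumors, KO lines and WT lines. Mmp2, Mmp7, Adamts2 and Adamts7 reach higher in KO tumors except for KO tumor 2, and Mmp9, Mmp13, Adam17 and Mmp14 reach higher in WT tumors, with overlap in every panel.

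Of the 7 members lower in KO tumors at that unadjusted p, 3 were MMPs, 2 sheddases and 2 ADAMTS genes. However, 12 of 19 MMPs and 5 of 9 sheddases tested had a positive difference, as did 9243 of all 18125 genes. Mmp13 ran from 3.15 to 27.7 CPM in KO tumors, with a median of 9.94, and was 63.1, 13.1, 82.2 and 23.9 CPM in WT tumors (-1.81 ± 0.63, adjusted p = 0.202, edgeR). Mmp9 ran from 10.8 to 86.0 CPM in KO tumors, with a median of 26.2, and was 99.6, 32.9, 157 and 41.3 CPM in WT tumors (-1.36 ± 0.55, adjusted p = 0.247). For both genes 5 of 8 KO tumors lay below every WT tumor, and the 3 others overlapped. Adamts4 ran from 9.73 to 30.4 CPM in KO tumors, with a median of 14.8, and was 19.1, 31.0, 36.7 and 25.3 CPM in WT tumors (-0.71 ± 0.30, adjusted p = 0.26). Adam12 had medians of 26.4 CPM in KO tumors and 37.7 CPM in WT tumors (-0.65 ± 0.26, adjusted p = 0.239). Adam17 had medians of 71.4 CPM in KO tumors and 95.7 CPM in WT tumors (-0.41 ± 0.16, adjusted p = 0.237). Mmp14 had medians of 339 CPM in KO tumors and 437 CPM in WT tumors (-0.42 ± 0.18, adjusted p = 0.273). For Adam12, Adam17 and Mmp14, 4 of 8 KO tumors lay below every WT tumor, and for Adamts4 6 of 8 did. Among the abundant members Adam9 (0.23 ± 0.31), Adam10 (0.02 ± 0.21) and Mmp15 (0.03 ± 0.36) had small differences with wide errors.

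Cell-type markers also varied between the tumor groups. Epithelial markers summed to 3731 to 7826 CPM in KO tumors, with a median of 5828, and to 5843 to 13660 CPM in WT tumors, with a median of 10300. Acinar markers had medians of 344 CPM in KO tumors and 41.9 CPM in WT tumors. Fibroblast and macrophage sums had medians of 5588 and 802.5 CPM in KO tumors and of 4887 and 818 CPM in WT tumors. Single fibroblast markers differed more than their sum, with 7 of 8 positive, Dcn at 2.21 ± 0.82 (adjusted p = 0.221), Pdgfra at 1.55 ± 0.45 (adjusted p = 0.148) and Fap at -1.15 ± 0.36 (adjusted p = 0.176, edgeR). Of all 18125 genes, 9243 were positive. Dcn (decorin) ran from 88.3 CPM in KO tumor 2 to 3314 in KO tumors, with a median of 498, and was 136, 270, 119 and 162 CPM in WT tumors. KO tumors were lower for all 5 skeletal muscle markers tested, each under 0.05 before adjustment (smallest adjusted p = 0.0685), with median sums of 3.73 CPM in KO tumors and 23.5 CPM in WT tumors. At that p 4 of 6 epithelial markers were lower too. Without the 3 tumors of highest acinar marker level, 9 of 12 tumors remained and 0 members passed, while 5 were under 0.05 before adjustment. With these 9 tumors the log2 fold changes were 1.40 for Adamts2, 3.29 for Adamts19, 0.74 for Mmp2 and -1.71 for Mmp13. The part of these markers in the members' differences was not tested.

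Between KO and WT lines 0 of 33 members passed, where 0.0143% of 14020 genes did. At an unadjusted p under 0.05, 0 members were higher and 1 lower, against 3.4% and 3.59% of all genes, and DESeq2 called 0 members among 46 genes. The median fold change was -0.03 over members and over all genes. The single member was Mmp24 (MT5-MMP), at 0.544, 0.490, 0.383, 0.801 and 0.354 CPM in KO lines and 0.408, 1.18, 5.71, 1.31 and 1.29 CPM in WT lines (-1.94 ± 0.63, adjusted p = 0.713, edgeR). WT line 3 was far above the others and WT line 1 lay among the KO lines, and without WT line 3 the change was -1.01. Mmp23 was 10.5, 0.805, 29, 5.79 and 0.886 CPM in KO lines and 2.0, 4.30, 1.37, 2.16 and 0.173 CPM in WT lines (2.23 ± 1.02, adjusted p = 0.715), and the groups overlapped. Without KO line 3 it was 1.17. The abundant members of the lines had small fold changes, with 0.23 ± 0.17 for Adam9, 0.16 ± 0.15 for Adam10, -0.03 ± 0.18 for Mmp14 and -0.08 ± 0.19 for Adam17. The gelatinases could not be tested in lines.

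The effect of KO in tumors was set against that in lines by an interaction test, in which 0 members and 0% of 18662 genes passed (edgeR). At an unadjusted p under 0.05, 4 members had a more positive difference in tumors and 0 a more negative one, against 5.26% and 3% of all genes, and DESeq2 called 0 members. They were Adamts2 (5.48 ± 1.61, adjusted p = 0.434), Mmp24 (3.06 ± 1.00, adjusted p = 0.446), Mmp9 (3.54 ± 1.5, adjusted p = 0.541) and Mmp16 (3.15 ± 1.46, adjusted p = 0.59). All but Mmp24 had fewer than 100 counts in the lines together. WT line 3 was the highest line for Adamts2 (3.22 CPM), Mmp24 (5.71 CPM) and Mmp9 (0.684 CPM), and without it 1 member was more positive and 2 more negative at that p.

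Inhibitors and activators of these enzymes are given from lists chosen by function. Of 5 metalloproteinase inhibitors 0 passed between KO and WT tumors. Reck, a membrane-anchored inhibitor with the 8mer site shown above, averaged 14.2 ± 8.83 CPM in KO tumors, 2.38 ± 1.27 in WT tumors, 0.521 ± 0.343 in KO lines and 0.394 ± 0.254 in WT lines. Its difference between KO and WT tumors was 2.55 ± 0.58 (adjusted p = 0.123, edgeR), with KO tumor 2 (2.54 CPM) inside the WT range of 1.05 to 4.11 CPM. Timp3, with the other 8mer, averaged 495 ± 173 CPM in KO tumors and 272 ± 122 in WT tumors (0.83 ± 0.31, adjusted p = 0.221). Timp2, with a 7mer-m8, averaged 578 ± 305 CPM in KO tumors and 345 ± 85.5 in WT tumors (0.72 ± 0.37, adjusted p = 0.342). Timp1, a secreted inhibitor, averaged 118 ± 53.2 CPM in KO tumors and 178 ± 20.6 in WT tumors (-0.64 ± 0.30, adjusted p = 0.305). Against the lines, 4 of the 5 inhibitors were higher in tumors, Timp1 by 2.98 ± 0.22 (adjusted p = 1.09e-09), and Timp2 did not pass, where 38.5% of all genes were higher and 27% lower. Within lines only 4 of the 5 could be tested, so this count is a description.

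Of 8 tested activators 0 passed between KO and WT tumors, with 1 higher and 3 lower at an unadjusted p under 0.05, against 8.34% and 8.39% of all genes. Furin, which cleaves the propeptides of MT-MMPs and ADAMs, averaged 286 ± 57.0 CPM in KO tumors and 425 ± 132 in WT tumors (-0.61 ± 0.21, adjusted p = 0.196, edgeR). In lines Pcsk6, another proprotein convertase, averaged 327 ± 101 CPM in KO and 132 ± 60.0 CPM in WT (1.31 ± 0.31, adjusted p = 0.561). Of 8 tested partners of ADAM10 and ADAM17, which include the iRhoms and tetraspanins, 0 passed and 2 were lower, and of 7 ADAMTS-like proteins 0 passed and 3 were higher at that p. Against the lines, 5 activators were higher in tumors and 1 lower, 5 partners higher and 2 lower, and 3 ADAMTS-like proteins higher and 2 lower, against 38.5% and 27% of all genes. Genes could pass the low-count filter through tumors alone. Within lines only 4 of the 7 ADAMTS-like proteins could be tested, so these counts are a description. Among the 2 tested proteoglycan substrates Vcan (versican) was higher in tumors than in lines by 2.23 ± 0.44 (adjusted p = 0.000177), and Acan (aggrecan) did not pass.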

How the data were processed

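The libraries are from 12 mouse pancreatic tumors and 10 cancer lines, 5 of which share an animal with a tumor by title. Per the labels, TRIzol was used for extraction and a stranded mRNA kit for the libraries, which were read from 1 end over 75 bases. Per the submitters' processing notes, the tools were bcl2fastq 1.9.0, Trim Galore and STAR, and the build mm10. The deposited values are raw counts per gene made by the authors. The strand setting and annotation of the counting are not given in the sources used here. Of 53342 identifiers, 53237 matched GENCODE vM21 and 105 (0.00944% of counts) did not.

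Tests used edgeR 4.0.16 in R 4.3.3 (filterByExpr by group, TMM, robust quasi-likelihood fit, Benjamini-Hochberg adjustment over all genes tested, threshold 0.05). Lines (14020 genes), tumors (18125) and all 22 libraries (18662) were fitted apart, with biological coefficients of variation of 0.422, 0.501 and 0.5. Pairs of libraries differed by a chi-square of at least 47.2 per degree of freedom, so none was taken as a repeat. Replicate numbers were given in accession order and pair nothing. Animals shared by lines and tumors, known by title, entered an alternative with limma 3.58.1 as a block (consensus correlation 0.287). Other alternatives were other factors, filters, DESeq2 1.42.0, limma-voom and leaving out libraries. The scripts were tested on simulated data.

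Members and lists were chosen with earlier results of these data known. Named members passed a comparison, were among the 10 of smallest p between KO and WT, or were among the 10 of highest mean CPM. Members outside this rule (such as those with sites, in the chromosome 9 cluster or in the interaction) were named after their values were seen. Where nothing says that samples of a group came from separate litters or cultures, p-values measure the spread between these samples.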

Additional observations from a re-analysis of the deposited data

Results flagged for a closer look

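In 9 of the 66 groups of values examined, 1 library stood far from the others of its group, by Dixon's 95% limit. Chance gives about 1 in 20 only for normal and independent values. These were untransformed CPM, and the same libraries recur among the groups, so the 9 are not a measure of excess. Among KO tumors, Mmp7 was 766 CPM in KO tumor 1 and 278 in the next, Adam15 was 188 CPM in KO tumor 6 and 102 in the next, and Adamts1 was 162 CPM in KO tumor 5 and 82.2 in the next. WT line 3 stood high for 4 members. It had 5.71 CPM of Mmp24 (next 1.31), 63.4 CPM of Adamts1 (next 11.5), 1.85 CPM of Adamts14 (next 0.556) and 129 CPM of Adamts9 (next 23.6). Mmp15 was 240.0 CPM in KO line 4 and 93.3 in the next KO line, and Mmp14 was 198 CPM in WT line 4 and 163 in the next WT line. The causes were not tested.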

How the results depend on the processing

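The count of members called between KO and WT tumors was 4 with DESeq2 and 0 to 2 when 1 library was left out, the 2 without KO tumor 2. It was 0 in lines and for the interaction under every alternative run. Between tumors and lines it ran from 35 to 46 (38 to 42 with 1 library left out), from 27 to 39 within WT and from 33 to 41 within KO. With animal as replicate block it was 44, 39 within WT, 38 within KO and 0 for the interaction, and no count moved by over 1.5 times. Of 1002 values of named members under alternatives, 964 kept direction and side of the threshold, 30 changed sign, 6 newly passed and 2 no longer passed, of which Adamts1 between tumors and lines has no adjusted p in DESeq2. Between tumors and lines these values cover only members that had passed, so the changes of Adam10, Mmp13, Mmp28 and Adamts15 given above are not among the 6. None of the 30 had passed, and the cause was not tested. With limma-voom in lines, Mmp10 was 0.0036 (-1.39 with edgeR) and Adamts9 0.44 (-0.21). Without the 3 acinar-high tumors, Adam10 was -0.0638 and Mmp15 -0.23 in tumors. Without KO tumor 2 and WT tumor 3, chosen after seeing the data, Adam10 was -0.0817, Mmp15 -0.21 and Adamts1 -0.0438. With 1 library left out, the ranges in lines were -1.35 to 0.18 for Adamts1, -0.0226 to 0.28 for Adam15, -0.10 to 0.12 for Mmp14, -0.28 to 0.53 for Mmp15, -0.18 to 0.0356 for Adam17, -0.47 to 0.99 for Adamts9 and -0.25 to 0.25 for Mmp28. In tumors they were -0.0275 to 0.47 for Adam9, -0.13 to 0.38 for Adam10, -0.24 to 0.50 for Mmp15, -0.0488 to 0.23 for Adam15 and -0.16 to 0.16 for Adamts1. Depth limits members near 0 counts in lines: folds of Mmp8, Adamts19 and Adamts20 are bounds, and other fitted folds there rest on few counts. Between KO and WT tumors, the fold of Adamts19 rests on few counts in WT tumors.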
